A study of Rattus norvegicus with 6 samples.

Results

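Keratins, tight junctions and desmosomes hold an epithelial sheet together, and 9 of their genes were examined here in rat kidney epithelial cells treated with streptozotocin (STZ). The genes were 4 keratins (Krt7, Krt8, Krt18 and Krt19), 4 tight junction genes (Cldn1, Ocln, Tjp1 and F11r) and the desmosome gene Dsp, taken from the count table by gene symbol. Of the 9 genes, 6 had a row among the 18930 rows of the table, and Krt19, Cldn1 and Ocln, which had none under their symbol, were not analysed here. In all, 2871 rows carried an Ensembl ID in place of a symbol and were not matched to symbols, so a gene without a row under its symbol may be among them. NRK-52E is an established wild-type line of rat kidney epithelial cells. RNA of 3 samples kept for 24 h in 10 mM of STZ, a DNA-alkylating glucosamine-nitrosourea, was compared with that of 3 samples of vehicle-treated cells (Control). All samples come from this 1 cell line, and nothing in the sources tells if they were grown as separate cultures. The errors and p-values therefore measure the spread between these samples, which may be technical.

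Keratins are the intermediate filament proteins of epithelia. A filament is built from pairs of 1 type I keratin (such as Krt18 and Krt19) and 1 type II keratin (such as Krt7 and Krt8), and Krt8 with Krt18 is the usual pair of simple epithelia such as kidney tubules. Tight junctions seal the space between neighbouring cells through membrane proteins (claudins, occludin and the adhesion molecules of the JAM family), which are tied to actin by the zonula occludens scaffolds. Desmosomes anchor the keratin filaments at the membrane, where desmosomal cadherins bind plakoglobin (Jup) and plakophilins, and these bind desmoplakin (Dsp).

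Of the 6 genes with a row, Krt8, F11r and Tjp1 were higher in STZ-treated cells, by 1.40-fold, 1.21-fold and 1.11-fold, and none was lower (0 by edgeR, DESeq2 and limma-voom, and 0 at an unadjusted p under 0.05 by edgeR). Krt7 and Dsp were tested and did not pass the threshold, and Krt18 had too few reads to be tested. A gene passed where edgeR's quasi-likelihood test, run on all 11870 genes with enough reads and adjusted by the Benjamini-Hochberg method, gave an adjusted p-value under 0.05. SE stands for the standard error of the fitted log2 fold change. At that threshold 25.9% of all genes tested were higher and 25.1% were lower, so a gene past it was common in this comparison. None of the listed genes also had an absolute log2 fold change over 1, the second threshold of the study, which 3.37% of all genes tested passed with the adjusted p-value. The median log2 fold change of the 5 genes tested was 0.28, beside -0.01 over all genes tested. In bulk RNA, fewer cells of a type and less RNA per cell cannot be told apart.

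**Figure D1:**
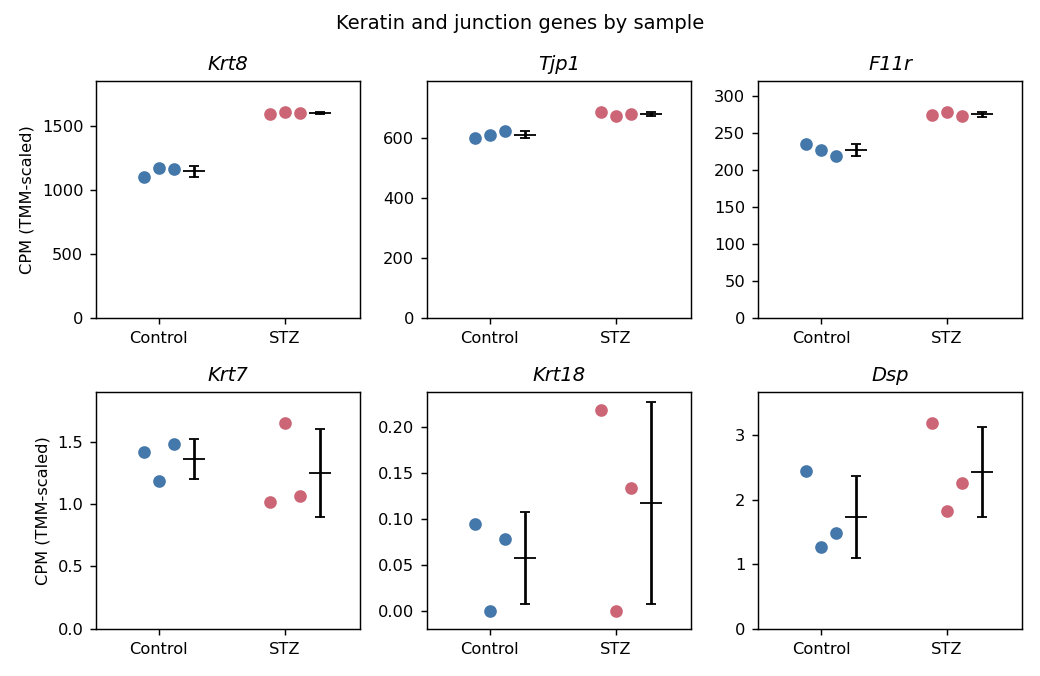
CPM (reads of a gene scaled by the TMM-adjusted library size) of the 6 listed genes with a row, 1 point per sample, with the mean and SD (n = 3) drawn as a black bar to the right of each group, and a separate vertical scale for each gene. Krt8, Tjp1 and F11r have every STZ sample above every Control sample, whereas the groups overlap for Krt7, Krt18 and Dsp, which lie under 3.2 CPM in every sample.

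Krt8, the type II keratin of simple epithelia, had 1102, 1178 and 1166 CPM (counts per 1000000 reads, after scaling of the libraries by the TMM method) in Control replicates 1, 2 and 3, and 1597, 1613 and 1604 CPM in STZ replicates 1, 2 and 3. The groups did not overlap, and the STZ samples lay closer to each other (SD 8.05, n = 3) than the Control samples (SD 40.7, n = 3). Among all genes tested, 28.6% had every STZ sample above every Control sample. The log2 fold change of Krt8 was 0.48 (SE 0.03, edgeR adjusted p = 1.82e-15), with a 95% interval of 0.41 to 0.55. Of all genes tested, 8.64% had a larger log2 fold change.

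Krt7, another type II keratin of simple epithelia, had 15, 13 and 19 reads in Control replicates 1, 2 and 3 and 14, 19 and 16 reads in STZ replicates 1, 2 and 3. The groups overlapped, and the log2 fold change was -0.16 with a 95% interval of -0.80 to 0.48 (adjusted p = 0.7, edgeR's quasi-likelihood test). At this depth the reads could not tell the values within this interval apart.

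Krt18, the type I partner of Krt8, had 1, 0 and 1 reads in the Control replicates and 3, 0 and 2 reads in the STZ replicates, of 10430924 to 15191349 reads per sample. In the STZ sample and the Control sample with 0 reads, the limit that a count of 0 allows is 0.257 and 0.275 CPM. Scaled for library size, the ratio of STZ to Control reads was 2.14, with a 95% counting interval of 0.35 to 22.5, so no difference was detectable. The authors counted uniquely mapped reads, and the current rat annotation (RefSeq, GRCr8) names 6 pseudogenes of Krt18 and 1 protein-coding Krt18-like gene. Reads that these copies share with Krt18 would not have been counted, so the count of Krt18 is uncertain, and the part of this in the low count was not tested.

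The other keratin rows did not supply a type I keratin with many reads. In all, 13 type I keratin genes had a row and together held 54 to 98 reads per sample, whereas 16 type II genes held 12014 to 24825. These are reads, not corrected for transcript length. Krt8 took 96.3% to 96.9% of the reads on these type I and type II rows in each sample (exact 95% binomial intervals between 96.1% and 97.2%, counting error only), a share that does not include Krt14, Krt16 and Krt19, which had no row under their symbol. Of the type I genes with a row, Krt15 and Krt10 were the 2 that could be tested. Krt15 had 25, 39 and 38 reads in Control and 59, 40 and 48 in STZ, and Krt10 had 17 to 21 reads in every sample, and neither passed the threshold (edgeR adjusted p = 0.237 and 0.639).

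**Figure D2:**
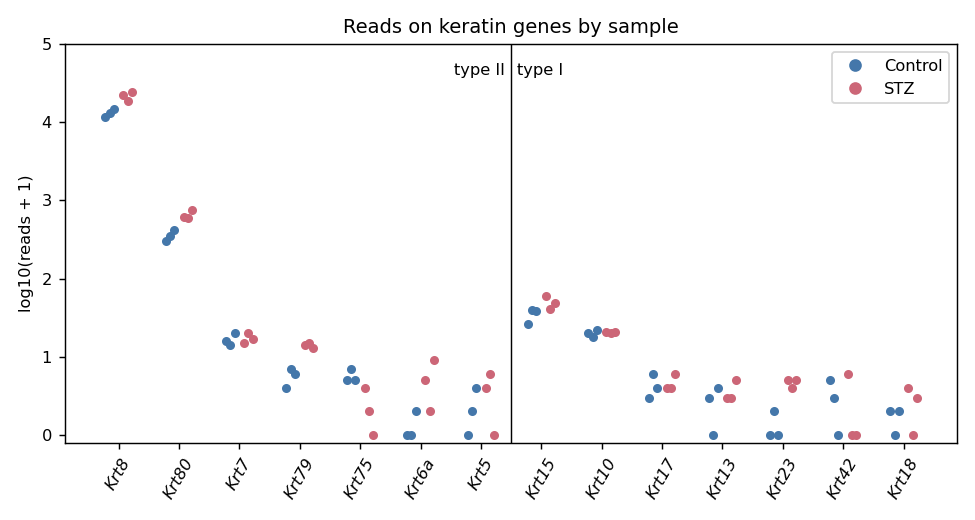
Reads per sample, as log10(reads + 1), on the keratin genes with at least 10 reads over all 6 samples and on Krt18, with type II keratins on the left and type I keratins on the right (3 Control and 3 STZ points per gene, reads not corrected for library size or transcript length). Krt8 has at least 11691 reads in every sample, and no type I keratin shown exceeds 59 reads in any sample.

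Krt8 and Krt18 lie close together on rat chromosome 7, with 1 annotated gene between them. Letters of 3 promoter motifs were searched on both strands in the 250 bases before the start that RefSeq (GRCr8) gives for each gene, with an entry for 7 of the 9 genes. The TATA box was searched as TATAAA, the GC box as GGGCGG and the AP-1 site as TGANTCA, and they were found in 12.9%, 30.5% and 6.34% of 33469 promoters. The stretches around the matches are shown for Krt8 and F11r, which rose, and for Krt18, the neighbour and partner of Krt8, with the matches in capitals. The stretch of Krt8 is chr7:135010418-135010485 on the minus strand, where TATAAA on 1 strand overlaps the same letters on the other. That of Krt18 is chr7:135036044-135036109 on the plus strand and holds 1 GC box. That of F11r is chr13:86406072-86406196 on the plus strand and holds an AP-1 match followed by a GC box read on the other strand.
Krt8: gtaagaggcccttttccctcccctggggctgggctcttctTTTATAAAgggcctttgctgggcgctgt
Krt18: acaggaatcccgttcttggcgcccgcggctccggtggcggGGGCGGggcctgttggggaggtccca
F11r: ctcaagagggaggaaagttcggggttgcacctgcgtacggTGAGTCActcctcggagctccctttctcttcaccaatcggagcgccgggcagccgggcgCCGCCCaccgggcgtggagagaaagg

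The entries of Tjp1, Ocln and Dsp begin at a start inside the annotated span of the gene, and their letters are not described. The matches of the other genes describe the letters and do not show that a factor binds there.

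F11r encodes JAM-A, an adhesion molecule of the immunoglobulin family at the tight junction. It had 235, 227 and 219 CPM in Control replicates 1, 2 and 3, and 275, 279 and 273 CPM in STZ replicates 1, 2 and 3. Every STZ sample lay above every Control sample. The log2 fold change was 0.28 (SE 0.04, edgeR adjusted p = 9.19e-08), with a 95% interval of 0.20 to 0.36.

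Tjp1 encodes ZO-1, the scaffold that ties the junction's membrane proteins to actin. It had 601, 611 and 624 CPM in the Control replicates and 688, 676 and 680 CPM in the STZ replicates. The groups did not overlap. The log2 fold change was 0.15 (SE 0.03, edgeR adjusted p = 2.57e-04), with a 95% interval of 0.08 to 0.22, and 28.6% of all genes tested had a larger one. In GRCr8 the span of Tjp1 overlaps 3 other annotated genes (2 long non-coding RNAs and 1 transfer RNA), and whether counting used strand is not given in the sources used here, so reads of these genes may not be fully separated.

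Within a library, the reads of 2 genes can be set against each other without any scaling. Krt8 had 1.83, 1.93 and 1.87 reads per Tjp1 read in the Control samples and 2.32, 2.39 and 2.36 in the STZ samples. F11r had 0.391, 0.371 and 0.352 reads per Tjp1 read in the Control samples and 0.399, 0.412 and 0.401 in the STZ samples. Both ratios were higher in all STZ samples than in all Control samples, with a two-sided exact permutation p of 0.1 for each, the smallest that 3 samples against 3 can give. In all, 4 such ratios were computed, and none of them was planned in advance. That of Jam3, a relative of F11r, was also higher in all STZ samples (exact permutation p = 0.1), whereas that of Jup did not separate the groups, with 0.608 to 0.641 reads per Tjp1 read in Control and 0.588 to 0.646 in STZ (exact permutation p = 1). Adjusted over the 4 ratios by the Benjamini-Hochberg method, the exact p was 0.133 for Krt8, F11r and Jam3. These 3 genes had larger log2 fold changes (0.48, 0.28 and 0.95) than Tjp1 (0.15). Their higher ratios therefore restate those values and are not a separate test.

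Dsp encodes desmoplakin, the plakin that links the desmosome to keratin filaments. It had 26, 14 and 19 reads in Control replicates 1, 2 and 3 and 44, 21 and 34 reads in STZ replicates 1, 2 and 3, or 2.45, 1.27 and 1.48 CPM against 3.20, 1.82 and 2.27 CPM. Control replicate 1 lay above the lower 2 of the STZ samples, so the groups overlapped. The log2 fold change was 0.51 with a 95% interval of -0.04 to 1.07 (edgeR adjusted p = 0.117). Without Control replicate 1 the log2 fold change was 0.82 and passed the threshold (adjusted p = 0.0269, and 0.0269 to 0.507 over all alternatives).

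The other genes of the desmosome showed which of its parts were read in these cells. Of 13 further desmosome genes, 10 had a row and 3 could be tested. All 3 were plaque genes of the armadillo family, of which Pkp2 and Jup were higher and Pkp4 was lower. Pkp2, a plakophilin, had 46.1 to 53.0 CPM in Control and 60.8 to 64.6 CPM in STZ, a log2 fold change of 0.31 (SE 0.06, edgeR adjusted p = 1.62e-05). Jup, which is shared with adherens junctions, had 372 to 385 CPM in Control and 405 to 437 CPM in STZ, a log2 fold change of 0.14 (edgeR adjusted p = 1.17e-03). Pkp4, which is found at adherens junctions too, had 38.2 to 43.4 CPM in Control and 32.4 to 33.5 CPM in STZ and fell by 0.29 on the log2 scale (edgeR adjusted p = 3.13e-04). The desmosomal cadherins that had a row were near 0. Dsg2 and Dsg3 had 1 read each over all 6 samples, and Dsg4 and Dsc1 had 3 reads each. Dsg1, Dsc2 and Dsc3 had no row under their symbol and were not analysed here.

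Among 19 further keratin, plakin and filament genes, 17 had a row and 8 could be tested. Of these, 5 were higher and 1 lower, beside 25.9% and 25.1% of all genes tested. The median log2 fold change of the 8 was 0.48, beside -0.01 over all genes tested. The plakins, the large linker proteins to which Dsp belongs, made up 4 of the 5. Evpl (envoplakin) had 6.98, 6.91 and 5.15 CPM in Control and 15.2, 14.3 and 15.3 CPM in STZ, so the STZ samples lay well above the Control samples. Its log2 fold change was 1.25 (SE 0.13, edgeR adjusted p = 2.85e-11). Ppl (periplakin), the partner of envoplakin, had 59.2 to 63.7 CPM in Control and 97.5 to 99.7 CPM in STZ, a log2 fold change of 0.69 (SE 0.05, edgeR adjusted p = 2.1e-15). Plec (plectin), which joins intermediate filaments to other parts of the cytoskeleton, had a log2 fold change of 0.15 (edgeR adjusted p = 8.53e-04). Eppk1 (epiplakin), named after its values were seen, had 6 to 14 reads in Control and 18 to 32 in STZ, with a log2 fold change of 1.06 (edgeR adjusted p = 4.74e-03). Without Control replicate 2 it was 0.79 and did not pass (edgeR adjusted p = 0.0561). Eppk1 had enough reads to be tested only because of its STZ samples. It was not tested when at least 10 counts were asked for in every sample.

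The remaining gene of these 5 was Krt80, a type II keratin. It had 28.1, 31.5 and 32.4 CPM in Control and 44.0, 51.4 and 49.8 CPM in STZ, with no overlap. Its log2 fold change of 0.65 (SE 0.07, edgeR adjusted p = 1.48e-10) was larger than that of Krt8, and the difference between both was not tested. Vim (vimentin), the intermediate filament protein of mesenchymal cells, was the 1 gene that was lower, with a log2 fold change of -0.12 (edgeR adjusted p = 5.24e-03). Without Control replicate 3 Vim was no longer past the threshold (log2 fold change -0.08, edgeR adjusted p = 0.0537).

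**Figure D3:**
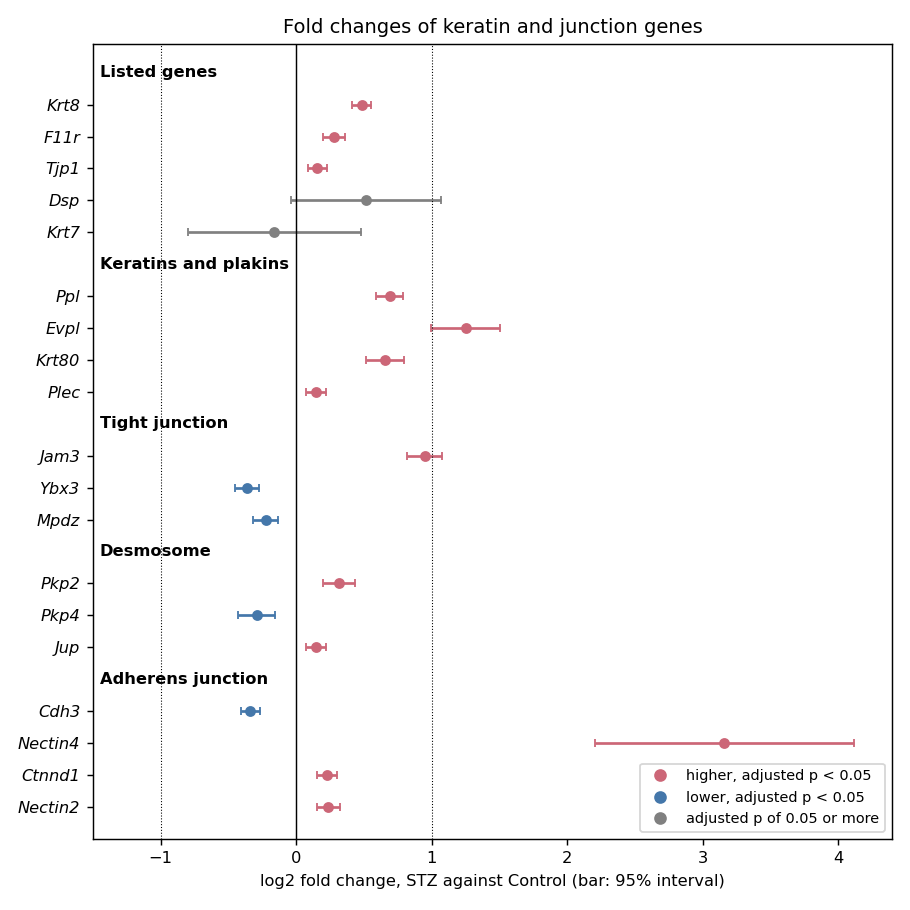
Log2 fold changes (STZ against Control, 3 samples each) with 95% intervals of edgeR's quasi-likelihood fit for the 5 listed genes tested and for genes of smallest p in 4 further lists, with dotted lines at -1 and 1. Among the listed genes the intervals of Krt8, F11r and Tjp1 lie above 0 and below 1, and those of Dsp and Krt7 include 0. The fitted value of Nectin4, with 1 to 3 reads per Control sample, depends on the prior count of the fit.

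Of 39 symbols listed for further tight junction genes (Mpp5 and Pals1 name the same gene), 32 had a row and 22 could be tested. Of these, 6 were higher and 4 lower, beside 25.9% and 25.1% of all genes tested, and 12 did not pass. The median log2 fold change of the 22 was 0.05, beside -0.01 over all genes tested. Jam3 (JAM-C), a relative of F11r, had 30.7, 34.4 and 30.3 CPM in Control and 62.7, 61.8 and 59.4 CPM in STZ. Every STZ sample was far above every Control sample, and the log2 fold change was 0.95 (SE 0.06, edgeR adjusted p = 1.18e-16), just under the second threshold. Leaving out 1 sample in turn gave 0.91 to 1.01.

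Tjp3 (ZO-3), another zonula occludens scaffold, did not pass the threshold, with 37 to 53 reads in Control, 54 to 60 in STZ and a 95% interval of -0.27 to 0.49. Claudins are the proteins that seal the junction, and few of those with a row under their symbol could be tested. Cldn12 was higher (log2 fold change 0.34, edgeR adjusted p = 1.23e-04), whereas Cldn15 and Cldn19 did not pass. Cldn2, Cldn3, Cldn4, Cldn6, Cldn10 and Cldn11 had at most 10 reads in any sample. Cldn1, Cldn7, Cldn8, Cldn9, Cldn14, Cldn16 and Cldn23 had no row under their symbol and were not analysed here. Among the genes that were lower were Ybx3 (ZONAB), a transcription factor that binds ZO-1, which fell by 0.36 on the log2 scale (edgeR adjusted p = 7.5e-09), and the scaffold Mpdz (MUPP1), which fell by 0.23 (edgeR adjusted p = 4.06e-05).

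Adherens junctions join cells through classical cadherins and nectins. Of 22 symbols listed for them, some of them older names of the same gene, 15 had a row and 10 genes could be tested. Of these 10, 5 were higher and 3 lower, beside 25.9% and 25.1% of all genes tested. The median log2 fold change of the 10 was 0.05. Cdh3 (P-cadherin) had 651 to 668 CPM in Control and 514 to 526 CPM in STZ and fell by 0.34 on the log2 scale (edgeR adjusted p = 6.38e-11). Cdh1 (E-cadherin), named after its values were seen, had 22 to 35 reads in Control and 16 to 25 in STZ, with a log2 fold change of -0.69 (edgeR adjusted p = 0.0296). Cdh1 did not pass without Control replicate 1 or 3 (adjusted p = 0.113 and 0.0847) or without STZ replicate 1 or 3 (adjusted p = 0.0572 and 0.223, edgeR), nor by DESeq2 (adjusted p = 0.113).

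Nectin2, an adhesion molecule, and Ctnnd1 (p120-catenin), which binds the tail of cadherins, were higher, with log2 fold changes of 0.24 and 0.23 (edgeR adjusted p = 7.19e-06 and 1.29e-06). Nectin4, another nectin, had 2, 3 and 1 reads in Control and 25, 17 and 24 reads in STZ. Scaled for library size, the STZ samples held 9.41 times the Control reads, with a 95% counting interval of 4.10 to 26.6, and the adjusted p-value was 3.64e-07 (edgeR's quasi-likelihood test). Of the listed and further genes, 30 passed the adjusted p-value. Those tested were 5 listed, 8 keratin, plakin and filament, 22 tight junction, 3 desmosome and 10 adherens junction genes. Over all genes tested, 25.9% passed as higher and 25.1% as lower. Of the 30, 3 (Evpl, Eppk1 and Nectin4) passed both thresholds, which 3.37% of all genes tested passed. The filter asks for about 10 reads in at least 3 samples. Nectin4 reached this only in STZ, and Eppk1 had 6 reads in 1 Control sample, so both were tested because of their STZ reads.

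**Figure D4:**
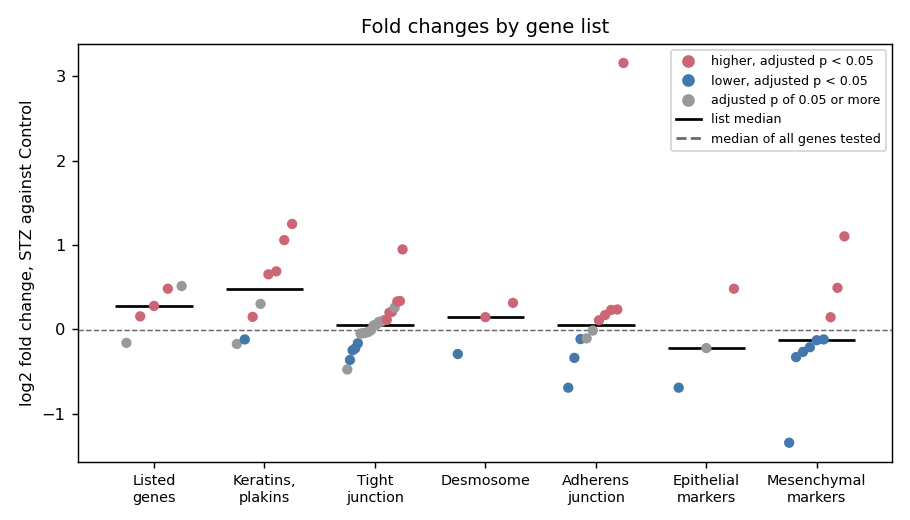
Log2 fold changes (STZ against Control) of every gene tested in 7 lists, 1 point per gene ordered within its list by value, with the list median as a solid line and the median of all genes tested as a dashed line. The listed genes (median 0.28) and the keratins and plakins (median 0.48) lie mostly above the dashed line, while the points of the tight junction and adherens junction lists fall on both sides of it (median 0.05 in each).

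The epithelial label of the line was checked against 14 epithelial markers. Of these, 10 had a row and 3 (Krt8, Cdh1 and Ovol1) could be tested, and Epcam was not analysed here. Krt8 held most of the list's reads, since the list summed to 1107 to 1181 CPM in Control and 1600 to 1617 CPM in STZ. The defining markers Cldn3 and Grhl2 had 1 and 4 reads in all 6 samples. Apart from Krt8, no row of the list exceeded 35 reads in any sample (Cdh1). Beyond Krt8, this list therefore does not bear out the epithelial label. Of 16 mesenchymal markers, 15 had a row and 9 could be tested. Of these, 3 were higher and 6 lower, beside 25.9% and 25.1% of all genes tested. The list summed to 2457 to 2688 CPM in Control and 2362 to 2373 CPM in STZ. Vim held most of this sum, with 1893 to 2106 CPM in Control and 1828 to 1870 CPM in STZ. The marker genes given here were named after their values were seen. The largest change among the 9 was that of the collagen gene Col3a1, which fell by 1.35 on the log2 scale (edgeR adjusted p = 2.54e-18). Pdgfrb, Col1a1, Acta2, Fn1 and Vim were lower too, with log2 fold changes of -0.33 to -0.12. Of these, Col1a1, Acta2, Fn1 and Vim did not pass without Control replicate 3 (edgeR adjusted p = 0.0574, 0.062, 0.0824 and 0.0537), nor did Col1a1 and Fn1 without STZ replicate 3 (edgeR adjusted p = 0.226 and 0.139). The largest rise was that of Snai2, a repressor of E-cadherin (log2 fold change 1.10, edgeR adjusted p = 9.25e-09). S100a4 and Zeb1 were higher too, with log2 fold changes of 0.49 and 0.14 (edgeR adjusted p = 1.13e-09 and 0.0173). Endothelial and leukocyte markers summed to at most 4.15 CPM in any sample, with 1 gene tested in each list, and Pecam1 and Ptprc had 3 reads and 1 read in all. The endothelial gene tested, Vwf (von Willebrand factor), had 24 to 36 reads in Control and 6 to 22 in STZ and was lower (log2 fold change -1.15, edgeR adjusted p = 1.29e-03). Kdr, an endothelial marker with too few reads for the filter, went the other way. It had 3 reads in Control and 22 in STZ (edgeR adjusted p = 0.00864 with no filter). The leukocyte gene tested did not pass. Of 12 proximal tubule markers, 7 had a row and 3 could be tested, and the list summed to 59.6 to 62.7 CPM in Control and 77.7 to 89.4 CPM in STZ. The markers Lrp2, Cubn, Slc34a1 and Slc5a2 had 11, 32, 3 and 23 reads over all 6 samples and were not tested. Ggt1, a brush border enzyme, held most of the list's CPM. It was higher, with 42.5 to 47.9 CPM in Control and 68.0 to 81.4 CPM in STZ (edgeR adjusted p = 1.87e-13). The water channel Aqp1 was lower, with 8.81 to 15.2 CPM in Control and 4.67 to 5.89 CPM in STZ, and fell by 1.25 on the log2 scale (edgeR adjusted p = 9.36e-09). Of 13 distal and collecting duct markers, 9 had a row, and the list summed to 39.0 to 41.7 CPM in Control and 43.6 to 50.4 CPM in STZ, with 1 of 4 tested past the threshold, Gata3, which was higher. The part of these markers in the changes of the junction genes was not tested.

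The genes whose values followed Krt8 most closely over the 6 samples were Atp6v1a (a subunit of the proton pump V-ATPase), Gna15 (a G protein subunit) and Dgka (a diacylglycerol kinase), with Pearson's r on log2 CPM of at least 0.999 for each. The 6 samples fall into 2 groups, so r reflects mainly the difference between the groups, and 207 of 10950 genes compared had r over 0.99. Their log2 fold changes were 0.50, 0.92 and 1.26.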

How the data were processed

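The authors mapped 100-base single-end reads of NRK-52E cells to the rat genome (Rnor6) with STAR 2.7.10a, ran featureCounts on the uniquely mapped ones, and deposited the resulting counts without normalization (1 column for each of the 6 samples). Total counts were 10430924 to 15191349 per sample, which limits precision for low genes. From these counts TMM scaling, filterByExpr at its defaults (11870 genes left) and the quasi-likelihood test with Benjamini-Hochberg adjustment were computed here with edgeR 4.0.16 in R 4.3.3. CPM are counts per 1000000 reads after TMM scaling. Standard errors are the absolute log2 fold change over the square root of F. The further genes named are the 4 of smallest p per list (3 in the desmosome list) and the 3 most like Krt8; other genes were named after their values were seen. The values of 1 tight junction gene that this rule names are not reported here, though the gene enters the counts. The members and lists were chosen with earlier results of these data known. Alternatives were other filters, scalings and tests (DESeq2 1.42.0, limma-voom with limma 3.58.1), a replicate block and leaving out each sample. The code was tested on simulated data. Transcript lengths were not used, so levels are not compared between genes.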

Additional observations from a re-analysis of the deposited data

How the results depend on the processing

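The fold changes of the genes tested and named were recomputed under 14 alternatives, the marker genes included but not S100a4 and Zeb1. So were the counts of the listed genes and of the 4 junction and keratin lists. The alternatives for genes named after their values were seen were added after seeing the data. Summed marker levels, counts over the marker lists, read shares, ratios of reads and motif matches were not recomputed. Krt8, F11r and Tjp1 stayed higher and past the adjusted p-value in all of them, with log2 fold changes of 0.45 to 0.50, 0.24 to 0.30 and 0.12 to 0.17. The number of listed genes that were higher was 3, or 4 without Control replicate 1, where Dsp passed, and the number lower was 0. Leaving out 1 sample in turn moved the lower genes between 0 and 1 among keratins and plakins (0 without Control replicate 3, where Vim was lost) and between 1 and 3 among adherens junction genes (1 without STZ replicate 3, where Cdh1 and Ctnnb1 were lost). Of the 420 refits of the 30 genes called, 398 kept the call, 20 lost it, 0 reversed and 2 gave no test (Eppk1 and Nectin4 with at least 10 counts in every sample). Prkci lost it in 8 of them, for example with library size only (adjusted p = 0.152, edgeR). Leaving out 1 sample in turn, the log2 fold changes of 2 claudins that were not past the threshold changed sign, from -0.025 to 0.17 for Cldn15 and from -0.21 to 0.13 for Cldn19. The labels do not say if Control and STZ samples of the same replicate number were paired. Deviations from the group means correlated between such samples by 0.0289, -0.0227 and 0.138 (over 9239 genes, no independent replicates). Samples of unlike number were not compared in this way, so these values cannot decide on a pairing. With the replicate block 3 listed genes were higher and 0 lower, and 398 genes passed both thresholds against 400 without it. With at least 10 counts in every sample 249 genes passed both, and with no filter 585. The ratio of type II to type I keratin counts was not computed, because Krt18 had 0 reads in 2 samples and Krt19 was not analysed here. Depth limited Krt7, Krt18 and Dsp.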

Other observations

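Some junction and keratin genes with too few reads for the main filter passed the adjusted p-value when no filter was used, and are named here because of their values. With no filter, 3090 of all 18930 genes passed as higher and 2948 as lower. Cldn4, a claudin, had 0 reads in the Control samples and 3, 4 and 4 reads in the STZ samples (edgeR adjusted p = 0.0118 with no filter). Nectin1, a nectin, had 2, 4 and 5 reads in Control and 11, 15 and 13 in STZ (adjusted p = 0.00878, edgeR with no filter). Krt6a, a keratin of stressed epithelia, had 1 read in Control and 13 in STZ (adjusted p = 0.032), and the plakophilin Pkp3 had 9 and 30 (adjusted p = 0.0364, both edgeR with no filter). Krt79, another keratin, had 14 reads in Control and 39 in STZ (edgeR adjusted p = 0.0367 with no filter). All of these rest on few reads, and none was tested with the filter.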
